A study of Mus musculus with 40 samples.

Results

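The miR-30 family is a group of related microRNAs (miRNAs), and its abundant mature forms were measured here in the hippocampus of a mouse model of heart failure. The family members described are 7 of the 1978 mature mouse miRNAs in the count table: mmu-miR-30a-5p, mmu-miR-30b-5p, mmu-miR-30c-5p, mmu-miR-30d-5p and mmu-miR-30e-5p from the 5′ arm of their hairpins, and mmu-miR-30a-3p and mmu-miR-30e-3p from the 3′ arm. The prefix mmu, for mouse, is left out from here on. They were chosen by name, and where the table lists a miRNA under several hairpins the entry with the most reads was used. The libraries are small RNA libraries of the hippocampal sub-region CA1, 1 library for each of 40 mice. The mice fall into 4 groups: wild-type control mice at 3 months (n = 5), CamKIIδC TG mice at 3 months (n = 9), wild-type control mice at 6 months (n = 15) and CamKIIδC TG mice at 6 months (n = 11). All mice had a C57Bl/6J background, the wild-type mice were littermates, and both sexes were used. The TG mice overexpress the δC isoform of the calcium/calmodulin-dependent kinase CaMKII, the promoter of the transgene is not given in the sources used here, and no other allele is named for either genotype. Isoflurane was used as the anaesthetic for echocardiography, and the labels do not say which of these mice had it. The genotype field of 3-month wild-type control mice 1 and 2 reads TG, whereas their titles say wild-type, and the titles were followed.

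A miRNA gene is transcribed into a hairpin that the enzymes Drosha and Dicer cut into a short duplex. Either strand of the duplex, the 5p or the 3p arm, can be loaded into an Argonaute protein, and it then finds target mRNAs mainly through its seed, the bases close to its 5′ end. The 5p arms of the family share one seed, and the family is known as a broadly expressed and abundant group in brain and heart. Known targets of miR-30 include the mRNAs of the neurotrophin BDNF and of the autophagy protein Beclin 1. In neurons miR-384-5p carries the same seed and is known for its part in lasting synaptic plasticity.

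Sequences were found for 5 of the 7 members in RefSeq (GRCm38.p6), and they show which reads the family members can and cannot tell apart. The seed, bases 2 to 8 from the 5′ end, is in capitals, and the 5p arms are shown first.
miR-30a-5p: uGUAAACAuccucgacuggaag
miR-30c-5p: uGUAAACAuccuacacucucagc
miR-30e-5p: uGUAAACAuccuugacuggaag
miR-384-5p: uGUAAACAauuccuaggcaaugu
miR-30a-3p: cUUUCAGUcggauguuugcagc
miR-30e-3p: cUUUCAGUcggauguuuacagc
The 5p arms of miR-30a and miR-30e are identical at 21 of 22 bases and differ by C13U, counted from the 5′ end of miR-30a-5p. miR-30c-5p shares the first 12 bases with both and differs after them. The 3p arms of miR-30a and miR-30e carry another seed and differ by G18A, again at 1 of 22 bases. How many mismatches the authors' counting allowed is not given in the sources used here, so how reads were divided between miR-30a and miR-30e is uncertain for both arms. Besides the miRNAs of this list, 0 other mature miRNAs with a sequence had the seed of miR-30a-5p. The seed of miR-30a-3p was found in 2 miRNAs with a sequence, itself and miR-30e-3p. No sequence was found for either arm of miR-30b and miR-30d, so their seeds were not checked.

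The hairpins of miR-30a and miR-30e show where the compared arms lie, here in capitals within the precursor.
Mir30a: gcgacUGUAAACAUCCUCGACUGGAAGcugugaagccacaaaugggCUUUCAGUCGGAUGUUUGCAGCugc
Mir30e: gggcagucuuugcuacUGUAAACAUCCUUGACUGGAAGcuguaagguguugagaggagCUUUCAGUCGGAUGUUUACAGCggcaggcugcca
Mir30a (chr1:23272269-23272339, plus strand, GRCm38.p6) lies 19361 bases from Mir30c-2 (chr1:23291701-23291784, plus strand), which overlaps an exon of the lincRNA gene Gm27028. Mir30e (chr4:120772606-120772697, minus strand) and Mir30c-1 (chr4:120769534-120769622, minus strand) are 2983 bases apart. Both lie within an intron of Nfyc, on the same strand, and Nfyc codes for a subunit of the transcription factor NF-Y. Because miR-30c-5p is listed under both of its hairpins with nearly the same reads (3555598 for Mir30c-2, used here, and 3555429 for Mir30c-1 over all libraries), the reads of these hairpins cannot be told apart.

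The libraries held 1926108 to 22892729 miRNA reads, with medians of 14340558 and 18431486 in wild-type control and TG mice at 3 months and 9893109 and 9239179 at 6 months. Levels are given as CPM, the reads of a miRNA scaled to a common total of miRNA reads in every library after TMM normalization, the members had at least 50 reads in every library, and p-values measure the spread between mice. A set of 5 miRNAs common in neurons (miR-124-3p, miR-9-5p, miR-128-3p, miR-132-3p and miR-138-5p) summed to between 169053 and 302209 CPM in every library. Sums of cell type markers, here and below, were scaled by the miRNA total only, without TMM. In bulk tissue a lower level in each cell cannot be told apart from fewer cells that express the miRNA. The 3-month libraries did not form one set. Over the other miRNAs, weighted by reads, the mean GC content was 44.29% to 46.89% in the 26 libraries of 6-month mice and 43.06% to 43.82% in 11 libraries of 3-month mice, but 45.17% in TG mouse 8 and 45.65% and 45.20% in wild-type control mice 1 and 5 of the 3-month groups. The labels name no sequencing batch, so a batch and age cannot be told apart, and the results with 3-month mice are also given without these 3 libraries.

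The members differed widely in level. miR-30d-5p was the most abundant, with a mean of 16596 CPM over the 40 libraries, rank 14 of the 699 miRNAs that passed the filter on low counts. miR-30a-5p followed with 7189 CPM and miR-30c-5p with 6162 CPM, and these neighbours overlapped, since miR-30a-5p was above miR-30c-5p in 23 of 40 libraries. The 3p arms came next, with 3246 CPM for miR-30e-3p and 1872 CPM for miR-30a-3p, and miR-30e-3p was the higher in 40 of 40 libraries. miR-30c-5p lay above miR-30e-3p in 33 of 40 libraries. miR-30e-5p had 1413 CPM and was not separated from miR-30a-3p, which was above it in 21 of 40 libraries. The lowest member, miR-30b-5p, had 237 CPM and ranked 142 of 699. These are levels of sequenced reads, all from RNAs of almost one length, and differences in ligation between sequences were not measured.

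Together the 7 members took 1.84% to 4.58% of the miRNA reads of a library. miR-30d-5p alone gave 49.7% to 54.7% of the reads of the 5 member 5p arms, as group means. At 3 months miR-30c-5p made up 24.4% ± 5.6 of these reads in wild-type control mice (SD, n = 5) and 24.3% ± 7.3 in TG mice (SD, n = 9). At 6 months its share was 17.8% ± 5.2 in the wild-type group (SD, n = 15) and 17.1% ± 4.6 in the TG group (SD, n = 11). The share of miR-30a-5p was 19.3% ± 1.9 and 20.3% ± 3.0 at 3 months and 24.0% ± 4.2 and 23.7% ± 4.4 at 6 months, in the same order. The shares of the groups overlapped for both miRNAs, and they were not tested because they add up to a fixed total.

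Spread between mice of a group also differed among members. miR-30d-5p varied least, with a pooled SD within groups of 0.24 on the log2 scale, against a median of 0.63 over all miRNAs that passed the filter. miR-30a-5p had 0.34, miR-30c-5p 0.48 and miR-30e-5p 0.50. The 3p arms were more variable, at 0.69 for miR-30a-3p and 0.83 for miR-30e-3p, and miR-30b-5p most, at 1.02. Between the lowest and the highest library miR-30d-5p spanned 2.18-fold and miR-30b-5p 16.2-fold.

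**Figure D1:**
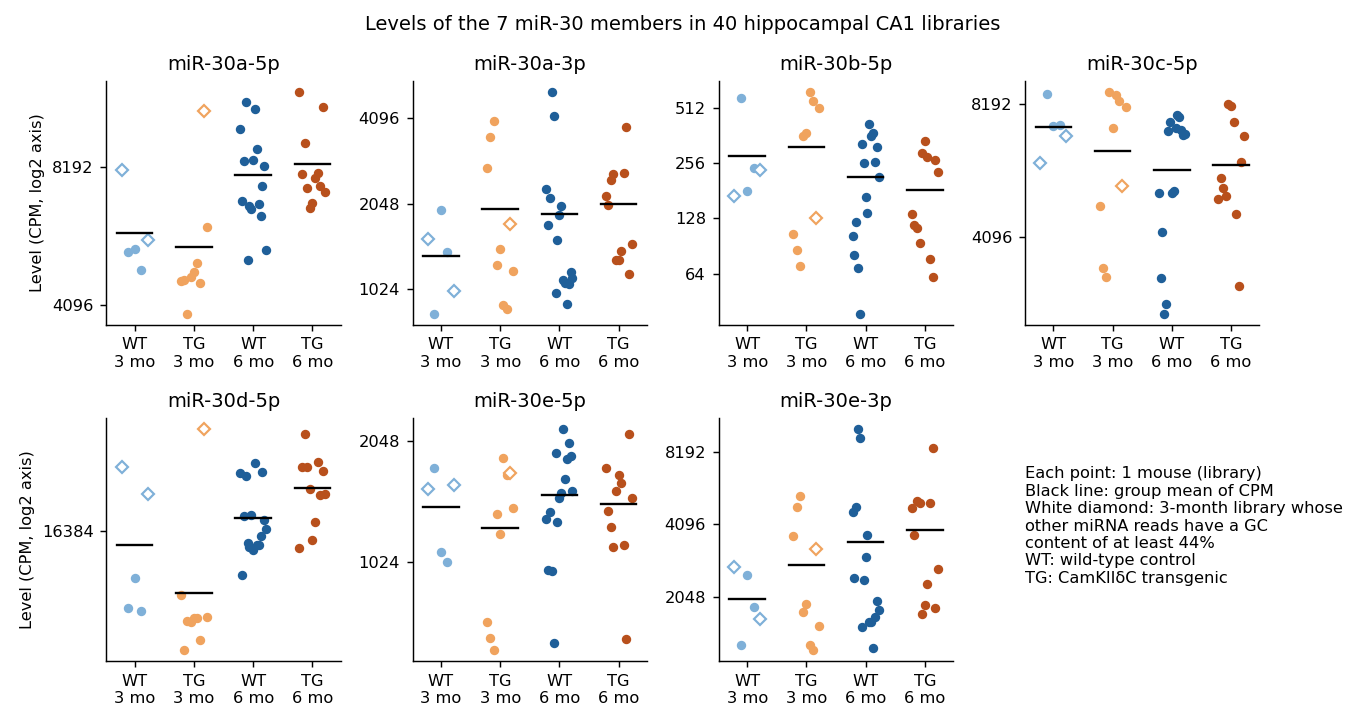
Level of each member (CPM, log2 axis) in every mouse by group, with the group mean as a black line. White diamonds are the 3 libraries of 3-month mice with a GC content like that of the 6-month libraries. miR-30d-5p forms narrow bands, whereas miR-30b-5p spreads from 38.7 to 626 CPM.

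The first question was whether the family changed with age in CamKIIδC TG mice, in which heart failure persists from 3 to 6 months. miR-30a-5p and miR-30d-5p rose between 3 and 6 months, and the other 5 members did not pass the test. Called here means an adjusted p under 0.05 in edgeR's quasi-likelihood test over all miRNAs and an absolute log2FC above 0.26. By this rule 2 of 7 members were called, both higher, while 15.7% of all 629 tested miRNAs were called (7.47% of the tested miRNAs higher and 8.27% lower). The median log2FC was 0.21 over the 7 members and -0.09 over all tested miRNAs.

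miR-30d-5p, the most abundant family member, lay between 10767 and 23523 CPM in the 9 TG mice at 3 months, with a median of 12051 CPM. In the 11 TG mice at 6 months it lay between 15430 and 23056 CPM, with a median of 19020 CPM. All 11 older mice were above the mean of the younger group, and 8 of 9 younger mice were below the lowest older mouse, the exception being mouse 8 with 23523 CPM. The log2FC was 0.55 with a SE of 0.14 (edgeR's quasi-likelihood test, adjusted p = 0.0107).

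miR-30a-5p, the next most abundant member, had 3922 to 10816 CPM with a median of 4715 CPM in TG mice at 3 months. At 6 months it had 6646 to 11914 CPM with a median of 7733 CPM. Here too 8 of 9 younger mice were below the lowest older mouse, and the group ranges overlapped through mouse 8. The log2FC was 0.62 with a SE of 0.17 (edgeR's quasi-likelihood test, adjusted p = 0.0175).

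The remaining members overlapped broadly between the ages in TG mice. miR-30b-5p had 70.4 to 626 CPM (median 363 CPM) at 3 months and 61.6 to 339 CPM (median 135 CPM) at 6 months, a log2FC of -0.78 with a SE of 0.41 (edgeR's quasi-likelihood test, adjusted p = 0.191). For miR-30c-5p, which is 12 bases identical with miR-30a-5p at its 5′ end, the log2FC was -0.10 (95% interval -0.49 to 0.30). That of miR-30e-5p was 0.21 (-0.22 to 0.65). The 3p arms had a log2FC of 0.08 (-0.49 to 0.65) for miR-30a-3p and 0.51 (-0.14 to 1.16) for miR-30e-3p. The intervals for miR-30e-5p, miR-30a-3p and miR-30e-3p include both 0 and the log2FC of 0.62 of miR-30a-5p, whereas that of miR-30c-5p ends below it.

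Library GC content moved with this age difference. With GC content as a covariate, the log2FC of miR-30d-5p was 0.11 with a SE of 0.17 (edgeR's quasi-likelihood test, adjusted p = 0.703) and that of miR-30a-5p 0.25 with a SE of 0.23 (edgeR's quasi-likelihood test, adjusted p = 0.498), and 0 of the 629 miRNAs were called. Without the libraries that stand apart, of which TG mouse 8 enters this comparison, the log2FC was 0.70 with a SE of 0.11 for miR-30d-5p (edgeR's quasi-likelihood test, adjusted p = 5.26e-05) and 0.81 with a SE of 0.13 for miR-30a-5p (edgeR's quasi-likelihood test, adjusted p = 0.000137). TG mouse 8 had the highest level of both miRNAs among the younger TG mice. Leaving it out raises both differences by itself, so this fit is no separate support for the rise. The other 5 members were not called without these libraries either, with a log2FC from -0.88 for miR-30b-5p to 0.55 for miR-30e-3p. That fit called 131 of 645 miRNAs. Both calls were also absent when libraries were scaled by their miRNA total alone, with a log2FC of 0.32 for miR-30d-5p and 0.38 for miR-30a-5p. That scaling called 108 of the 629 miRNAs.

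**Figure D2:**
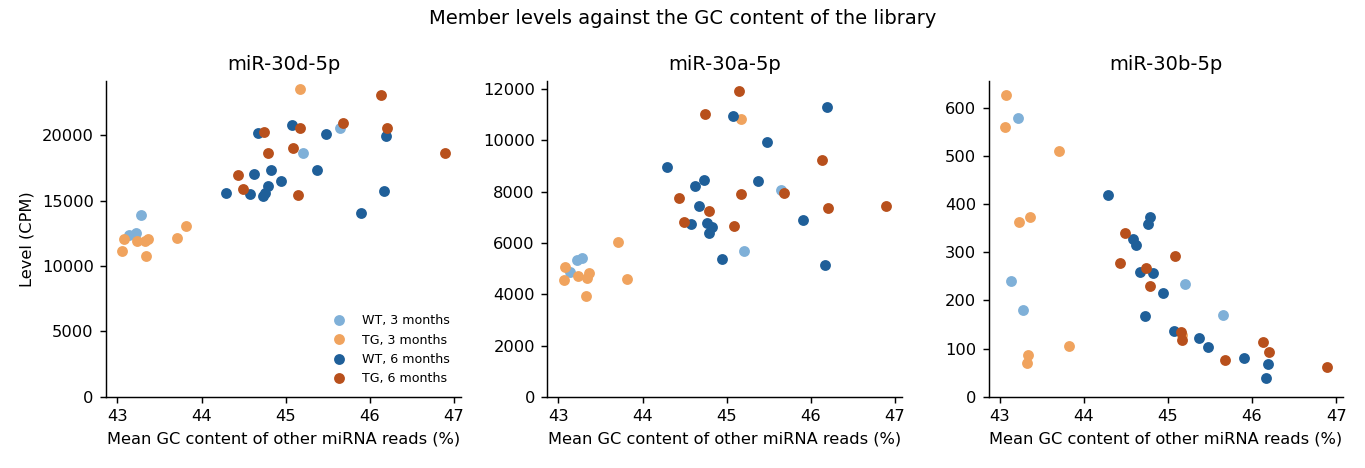
Level (CPM) of miR-30d-5p, miR-30a-5p and miR-30b-5p against the mean GC content (%) of the other miRNA reads, 1 point per library, coloured by group. For miR-30d-5p, the 3 libraries of 3-month mice with a GC content of 45.17% to 45.65% lie at 18680 to 23523 CPM, within or just above the range of the 6-month libraries.

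The levels of miR-30d-5p fell into separate ranges by library set. In the 11 libraries of 3-month mice with low GC content it had 10767 to 13876 CPM, and in the 26 libraries of 6-month mice 14030 to 23056 CPM, with no overlap. The 3 libraries that stand apart had 23523 CPM (TG mouse 8), 20570 CPM (wild-type control mouse 1) and 18680 CPM (wild-type control mouse 5), all within or above the range of the 6-month mice. For miR-30a-5p the 11 libraries had 3922 to 6049 CPM and the 26 libraries 5123 to 11914 CPM, which overlap, and the 3 libraries had 10816, 8077 and 5681 CPM. These sets of libraries were seen in the data and are not groups of the study. By the groups of the study, the values of miR-30d-5p overlapped in each comparison of age or genotype. How many other miRNAs separate between these sets is not given here.

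Some markers of other cell types changed with age in TG mice too, and their part in the rise of miR-30a-5p and miR-30d-5p was not tested. Both choroid plexus markers, miR-204-5p and miR-211-5p, were called higher. Their sum, in CPM without TMM as for all lists here, was 264 to 666 CPM at 3 months and 545 to 957 CPM at 6 months. Of 3 oligodendrocyte markers 2 were lower, and the sum was 1112 to 2843 CPM at 3 months and 629 to 1450 CPM at 6 months. Of 3 tested heart and skeletal muscle markers 1 was lower (585 to 1348 CPM against 434 to 662 CPM for the sum of the list), and the heart-specific miR-208a-3p was at 0 in 39 of 40 libraries. Among the other lists, 1 of 5 neuron, 1 of 4 endothelium and vessel wall and 1 of 4 erythroid markers were called higher, 2 of 4 erythroid markers lower, and 0 of 3 microglia and 0 of 1 liver markers were called.

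In wild-type control mice 0 of 7 members were called between 3 and 6 months (edgeR's quasi-likelihood test), while 0.152% of 660 tested miRNAs were. At an unadjusted p under 0.05, 1 of 7 members and 102 of 660 miRNAs passed, and DESeq2 called 0 of 7 members and 13 of 660 miRNAs. miR-30a-5p had 8077, 5351, 5424, 4886 and 5681 CPM in wild-type control mice 1 to 5 at 3 months. At 6 months it had 5123 to 11310 CPM with a median of 7431 CPM. Most older mice, 13 of 15, were above the younger mean, but the ranges overlapped, and the log2FC was 0.41 with a SE of 0.18 (edgeR's quasi-likelihood test, p = 0.0301 and adjusted p = 0.301).

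miR-30d-5p had 20570, 12496, 13876, 12361 and 18680 CPM in the 5 younger wild-type control mice, mice 1 and 5 being the high ones. At 6 months it had 14030 to 20830 CPM with a median of 16538 CPM. The log2FC was 0.13 with a 95% interval of -0.13 to 0.39. Without the 3 libraries that stand apart, mice 1 and 5 among them, it was 0.40 with a SE of 0.14 (edgeR's quasi-likelihood test, adjusted p = 0.0891), and that of miR-30a-5p was 0.57 with a SE of 0.21 (edgeR's quasi-likelihood test, adjusted p = 0.0971). Mice 1 and 5 had the highest younger levels of both miRNAs, so leaving them out raises both differences by itself.

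Among the other members in wild-type control mice, miR-30b-5p had 170, 580, 181, 240 and 235 CPM at 3 months and 38.7 to 420 CPM at 6 months, a log2FC of -0.39 (95% interval -1.21 to 0.43). miR-30c-5p had a log2FC of -0.33 (-0.77 to 0.10) and miR-30e-5p 0.10 (-0.34 to 0.53). Values for the 3p arms were 0.47 (-0.22 to 1.16) for miR-30a-3p and 0.77 (-0.09 to 1.64) for miR-30e-3p. For each of these 5 members the values of the ages overlapped. Without the 3 libraries that stand apart these 5 had a log2FC from -0.67 for miR-30b-5p to 0.88 for miR-30e-3p. In that fit 0 of 7 members were called, beside 46 of 686 miRNAs.

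The effect of age was not shown to differ between the genotypes for any member. In the interaction of age and genotype 0 of 7 members were called (edgeR's quasi-likelihood test), as were 0% of 699 miRNAs, and the smallest adjusted p over all miRNAs was 0.986. miR-30d-5p had an interaction of 0.40 with a SE of 0.19 on the log2 scale, the older minus younger difference being the larger in TG mice (edgeR's quasi-likelihood test, p = 0.0385 and adjusted p = 0.986), and without the 3 libraries that stand apart it was 0.27 with a SE of 0.15. It was the 1 member with an unadjusted p under 0.05, as were 14 of the 699 miRNAs, and DESeq2 called 0 of 7. For miR-30a-5p the interaction was 0.19 (95% interval -0.29 to 0.67), and 0.20 with a SE of 0.24 without the 3 libraries. The other 5 members then had values from -0.39 for miR-30a-3p to 0.27 for miR-30c-5p, and 0 of 7 were called, as were 0 of 730 miRNAs.

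A further question was whether TG and wild-type control mice differed at one age. At 3 months 0 of 7 members were called by edgeR's quasi-likelihood test, beside 0% of 695 tested miRNAs. DESeq2 called 0 of 7 members and 0 of the 695 miRNAs. At an unadjusted p under 0.05 in edgeR, 0 of 7 members and 7 of the 695 miRNAs passed. The members' log2FC, TG over wild-type, ran from -0.28 (95% interval -0.69 to 0.13) for miR-30d-5p to 0.46 (-0.21 to 1.14) for miR-30a-3p. All members overlapped between the groups. The interval of miR-30b-5p, -0.93 to 1.22, was the widest. Without the 3 libraries that stand apart 0 of 7 were called, beside 0 of 741 miRNAs. The log2FC then ran from -0.27 with a SE of 0.35 for miR-30c-5p to 0.44 with a SE of 0.45 for miR-30e-3p.

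At 6 months the SE was lower than at 3 months for all members but miR-30e-3p (0.35 against 0.34). Again 0 of 7 members were called by edgeR's quasi-likelihood test, beside 0% of 612 tested miRNAs. DESeq2 called 0 of 7 members and 0 of the 612 miRNAs. At an unadjusted p under 0.05 in edgeR, 0 of 7 members and 3 of the 612 miRNAs passed. miR-30d-5p had 14030 to 20830 CPM in wild-type control mice and 15430 to 23056 CPM in TG mice, and 8 of 11 TG mice were above the wild-type mean. Its log2FC was 0.14 with a 95% interval of -0.03 to 0.31. The log2FC was 0.07 (-0.19 to 0.32) for miR-30a-5p and 0.03 (-0.30 to 0.36) for miR-30c-5p. The other 4 members had values between -0.26 for miR-30b-5p and 0.13 for miR-30e-3p.

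**Figure D3:**
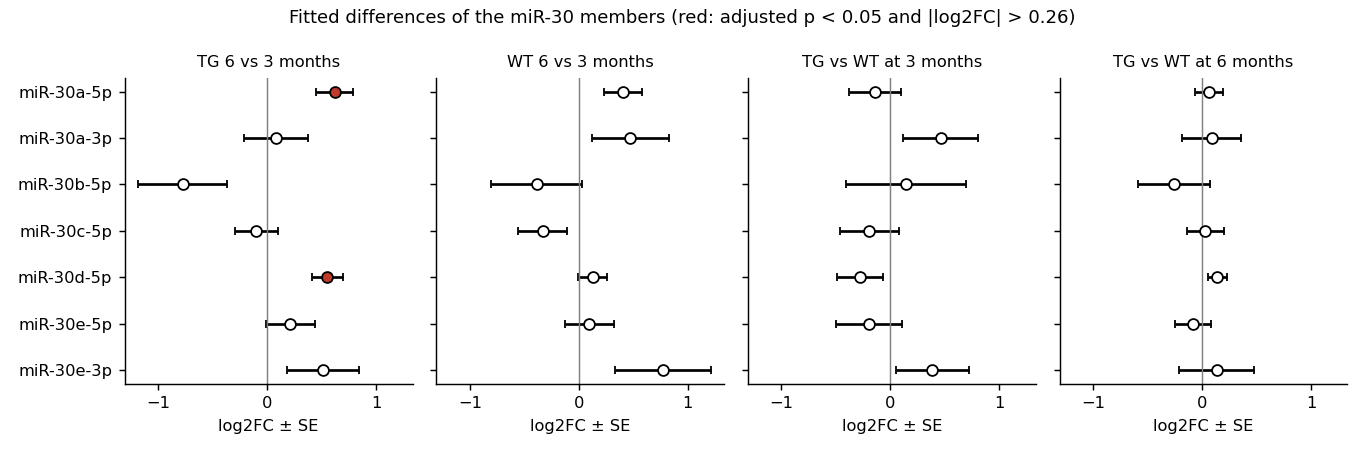
log2FC of each member with its SE in the comparisons of age within a genotype and of genotype within an age (x axis, 6 over 3 months or TG over wild-type). Filled red points are the members called, miR-30a-5p (0.62) and miR-30d-5p (0.55) with age in TG mice.

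Both arms of a hairpin are released when it is cut, and which arm is mostly kept differs between hairpins. For miR-30a the 5p arm prevailed, with a mean log2 ratio of 3p to 5p reads of -2.05 ± 0.75 (SD, n = 40) and a ratio above 0 in 1 of 40 libraries. For miR-30e the 3p arm prevailed, with a mean of 1.02 ± 1.23 (SD, n = 40) and a ratio above 0 in 31 of 40 libraries. The hairpins thus had opposite leading arms. Each arm differs by 1 base between them, and the split of reads is uncertain for that reason.

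The ratio varied strongly between mice of a group. In TG mice at 3 months the 3p reads of miR-30e were between 69.6 and 879 for every 100 5p reads, with a median of 160. In wild-type control mice at 6 months they were between 67.9 and 1466, with a median of 186. The highest values over all 40 libraries were 1466 and 1057 in wild-type control mice 5 and 4 and 1304 in TG mouse 9 at 6 months, which are the 3 libraries with fewer than 4000000 miRNA reads. Next came TG mouse 3 at 3 months with 879, from a library of 8939169 miRNA reads.

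None of the group differences in arm ratio passed the test. Between 6 and 3 months in TG mice the difference was -0.47 with a SE of 0.38 for miR-30a and 0.26 with a SE of 0.58 for miR-30e (exact permutation test, two-sided, adjusted p = 0.749 for both). In wild-type control mice it was -0.06 with a SE of 0.29 for miR-30a and 0.44 with a SE of 0.46 for miR-30e. The smallest and the largest adjusted p of the 8 permutation tests, which covered both hairpins in all 4 comparisons, were 0.749 and 0.815. Without the 3 libraries that stand apart, the age difference was -0.60 with a SE of 0.40 (miR-30a) and 0.24 with a SE of 0.63 (miR-30e) in TG mice, and -0.24 with a SE of 0.40 and 0.39 with a SE of 0.62 in wild-type control mice. TG minus wild-type at 3 months was 0.54 with a SE of 0.40 for miR-30a and 0.56 with a SE of 0.55 for miR-30e, and 0.49 with a SE of 0.50 and 0.53 with a SE of 0.73 without these libraries.

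**Figure D4:**
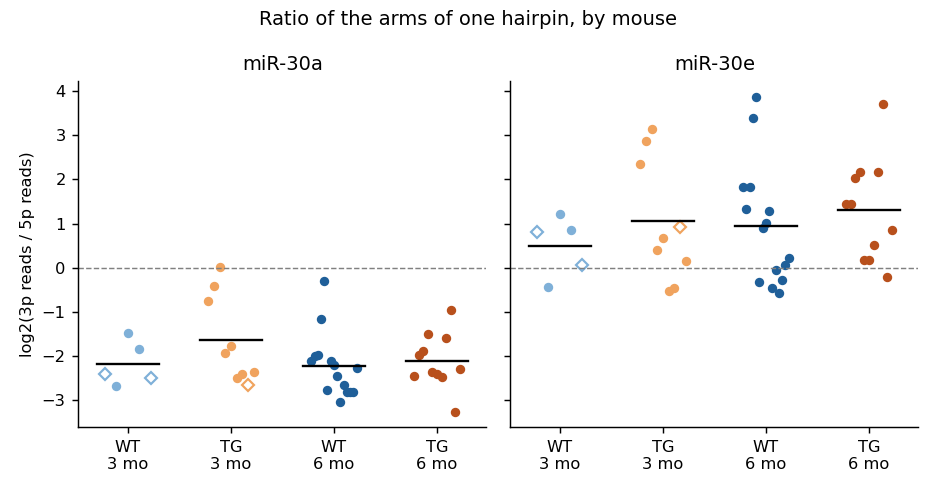
Log2 ratio of 3p to 5p reads of miR-30a and miR-30e in every mouse by group, with the group mean as a black line and equal arms as a dashed line. White diamonds are the 3 libraries of 3-month mice that stand apart in GC content. miR-30a lies below 0 in 39 of 40 libraries and miR-30e above 0 in 31 of 40.

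Mice of one group differed along a shared pattern within the family. After the group means were subtracted, the 2 arms of one hairpin did not go together, while the 3p arms of different hairpins did. Pearson's r over the 40 libraries was 0.98 between miR-30a-3p and miR-30e-3p, 0.94 between miR-30b-5p and miR-30c-5p and 0.84 between miR-30b-5p and miR-30e-5p. Between the arms of miR-30a r was 0.09, and between those of miR-30e it was -0.79. miR-30a-3p ran against miR-30b-5p (r = -0.93), miR-30c-5p (r = -0.91) and miR-30e-5p (r = -0.87). miR-30a-5p and miR-30d-5p, the members that rose in TG mice, belonged to neither set and had r = 0.63 with each other. These values describe members that come from the same libraries and share their depth and base composition, so no p is given.

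**Figure D5:**
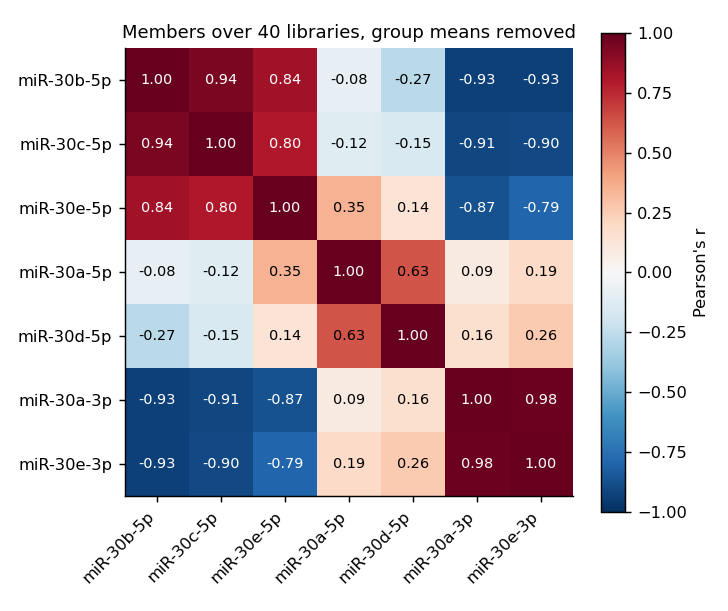
Pearson's r between members over 40 libraries after group means were subtracted from log2 CPM (red positive, blue negative). miR-30b-5p, miR-30c-5p and miR-30e-5p form one set (r of 0.80 to 0.94), the 3p arms another (r = 0.98), and the sets run against each other.

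The TG mice at 3 months show the pattern in values. TG mouse 3 had 3984 CPM of miR-30a-3p, 5400 CPM of miR-30e-3p, 70.4 CPM of miR-30b-5p, 3324 CPM of miR-30c-5p and 615 CPM of miR-30e-5p. These were the highest of both 3p arms and the lowest of these 5p arms among the 9 mice. Its level of miR-30d-5p, 11936 CPM, was close to the group median of 12051 CPM. TG mice 1 and 2 of this group went with mouse 3. They had 2742 and 3514 CPM of miR-30a-3p and 105 and 86.0 CPM of miR-30b-5p. Mice 4 to 9 had 868 to 1734 CPM of miR-30a-3p and 129 to 626 CPM of miR-30b-5p.

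Depth and GC content of the libraries moved with the same pattern, and their part in it was not tested. With the log2 number of miRNA reads, r was 0.76 for miR-30c-5p and 0.71 for miR-30b-5p, and -0.75 for miR-30e-3p and -0.71 for miR-30a-3p (n = 40, group means subtracted). With the GC content of the other miRNA reads, r was -0.66 for miR-30b-5p and 0.63 for both miR-30d-5p and miR-30e-3p. The miRNAs whose levels were most like the mean of the 5 member 5p arms, out of 349 whose mean reached 10 CPM, were miR-194-5p (r = 0.96), miR-376b-3p (r = 0.95) and miR-340-5p (r = 0.94). In that mean miR-30b-5p varied most (pooled SD 1.02) and miR-30d-5p least (0.24). With r = -0.27 between these members, the mean need not describe miR-30d-5p. Most like the mean of the 3p arms were miR-379-5p (r = 0.98), miR-106b-3p (r = 0.98) and miR-99b-5p (r = 0.97), so miRNAs of other families shared both profiles.

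Beyond the 7 members, 6 relatives by hairpin or seed are in the table. miR-384-5p, which shares the seed of the 5p arms, had group means of 230 CPM in wild-type control and 270 CPM in TG mice at 3 months and of 214 CPM and 223 CPM at 6 months. In TG mice it ranged from 98.9 to 446 CPM at 3 months and from 113 to 379 CPM at 6 months, with a log2FC of -0.27 (95% interval -0.83 to 0.30). The other arms of the miR-30b, miR-30c and miR-30d hairpins had low levels, from 16.8 CPM for miR-30c-1-3p in TG mice at 6 months to 134 CPM for miR-30c-2-3p in TG mice at 3 months, as group means. All of these means were below the lowest group mean of a member, 182 CPM for miR-30b-5p in TG mice at 6 months, but in single mice the order could turn. TG mouse 3 at 3 months had 232 CPM of miR-30c-2-3p and 70.4 CPM of miR-30b-5p. miR-30f, whose hairpin is annotated antisense to Mir30e, had 50 reads over all 40 libraries and was not tested. Of the 5 tested relatives 0 were called in any of the 5 comparisons (edgeR's quasi-likelihood test), 0 had an unadjusted p under 0.05, and DESeq2 called 1. That 1 was miR-30c-1-3p with age in TG mice, where DESeq2 called 142 of 629 miRNAs, with a log2FC of -0.31 (DESeq2, adjusted p = 0.0126) against -0.29 with a SE of 0.15 in edgeR (quasi-likelihood test, adjusted p = 0.166).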

How the data were processed

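Small RNA of CA1 tissue was sequenced with the NEBNext Small RNA kit. The authors demultiplexed the reads (bcl2fastq 2.20.2), checked them (FastQC 0.11.5), trimmed adapters (cutadapt, version 2.8 in the submitters' processing notes) and counted them against miRBase with mirdeep2 on mm10. They deposited raw counts for 2128 pairs of mature miRNA and precursor, with 52 spike-in entries that were left out here, and the same counts as RPM, which equal each count scaled by the library total with all entries, within 0.005. The members and lists were chosen with earlier results of these data known. Named are the 7 members, 6 relatives by hairpin or seed, the 3 miRNAs most like each arm's mean, and the cell type markers.

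Each comparison was fitted on its groups with edgeR 4.0.16 (R 4.3.3): filterByExpr (minimum count 10, minimum total 15), TMM and quasi-likelihood tests, Benjamini-Hochberg adjusted over all miRNAs. Arm ratios (prior count 2) were compared by exact permutation, or 100000 resamples with at least 10 mice in each group (scipy 1.17.1). Alternatives used DESeq2 1.42.0 with and without RUV factors, limma 3.58.1 on log2(RPM + 1) or log2(RPM + 0.1), other scalings and sets of mice. On simulated counts for the age comparison in TG mice, edgeR called 79 of 98 miRNAs changed 2-fold and 24 of 95 changed 1.5-fold. Each miRNA was simulated on its own, with no factor shared within a library beyond its scaling. The share called in the real data may therefore differ. A count of 0 allows up to 3 counts, or 0.131 to 1.56 CPM without TMM by library, for counting error only. GC content used the 1679 of 1978 miRNAs with a RefSeq sequence, which hold 96.4% of the reads outside the family. Positions and neighbouring genes are from RefSeq (GRCm38.p6) and GENCODE M21.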

Additional observations from a re-analysis of the deposited data

Results flagged for a closer look

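In the groups of 3-month mice, 18 sets of values (7 members and 2 arm ratios in both groups) were examined for a mouse far from the rest of its group, and 4 were found, where chance gives about 1 in 20. The sets share mice and reads and are not independent, so 4 of 18 cannot be read against that rate. miR-30d-5p was 23523 CPM in TG mouse 8, with the other 8 mice between 10767 and 13087 CPM. The same mouse had 10816 CPM of miR-30a-5p, against 3922 to 6049 CPM in the others. In wild-type control mice miR-30a-5p was 8077 CPM in mouse 1, against 4886 to 5681 CPM in the other 4. TG mouse 8 and wild-type control mouse 1 are among the libraries of 3-month mice with the high GC content. miR-30b-5p was 580 CPM in wild-type control mouse 2, with the others between 170 and 240 CPM, and the genotype field of this mouse reads TG. That field also reads TG for wild-type control mouse 1, which had the lowest value of the group, 170 CPM.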

How the results depend on the processing

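Between 6 and 3 months in TG mice, the count of called members was 2, beside 99 of all 629 miRNAs. It was 0 when libraries were scaled by their miRNA total, which called 108 of all 629 miRNAs. With no filter on low counts it was 0 (70 of 1621 miRNAs called). With limma it was 0 on log2(RPM + 1) (92 of 629) and 0 on log2(RPM + 0.1) (86 of 629). With GC content as a covariate it was 0 (0 of 629). With DESeq2 and 1 RUVr factor it was 4 (302 of 629). The other 10 of 16 alternatives gave a count within 1.5 times of 2. The cause of these differences was not tested. miR-30a-5p had a log2FC of 0.25 to 0.81 and miR-30d-5p of 0.11 to 0.70 over the 16 alternatives, positive in all. The direction of the other 5 members depended on the processing, and each kept its sign in 12 to 15 of the 16. Their log2FC ran from -1.104 to 0.775 for miR-30b-5p, -0.845 to 0.636 for miR-30e-3p and -0.898 to 0.291 for miR-30a-3p. For miR-30c-5p it ran from -0.39 to 0.497 and for miR-30e-5p from -0.075 to 0.567. Scaling by the miRNA total moved the median log2FC of all miRNAs to -0.29. In wild-type control mice the count was 0, and it was 5 with DESeq2 and 1 RUVr factor, which called 205 of all 660 miRNAs, while leaving out each of the 5 younger mice in turn kept it at 0. Counts in the other comparisons were 0 throughout, and the arm ratios kept their side of the threshold under every alternative run.

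Mice of different groups share numbers in their titles, and no label ties a number to a litter, batch or day. The deviations of same-numbered mice had r above 0.1 in 7 of 9 pairs in the age comparison of TG mice, 2 of 5 in that of wild-type control mice, 2 of 5 between genotypes at 3 months and 9 of 11 at 6 months (mean r of 0.25, 0.02, 0.01 and 0.31). Since not every pair was above 0.1 in any of these, the numbers were not taken as pairs. This rule is strict, as most pairs were above 0.1 in the age comparison of TG mice and between genotypes at 6 months. What same-numbered mice share was not tested. With the number as a replicate block the count of called members was 4 in wild-type control mice (245 of 597 miRNAs called) and 2 in TG mice (121 of 629). Counting wild-type control mice 1 and 2 of the 3-month group as TG left 2 called in TG mice, beside 99 of 618 miRNAs. The analyses with GC content as a covariate, without the 3 libraries that stand apart and without libraries under 4000000 miRNA reads were chosen after seeing the data. Age and an unlabelled batch cannot be told apart, and the low precision at 3 months limits the comparison of genotypes there. Simulated 2-fold changes were called there for 34 of 96 miRNAs, without the patterns that miRNAs of a real library share.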
